A study of Mus musculus with 18 samples.

Results

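The 8 genes described here encode the dedicated chaperones of proteasome assembly, listed by name for what the proteins do, with no measured value in the rule. They are 5 genes for chaperones of the 20S core (Pomp, Psmg1, Psmg2, Psmg3 and Psmg4) and 3 genes for chaperones of the 19S regulatory particle (Psmd5, Psmd9 and Psmd10), out of 43629 gene IDs in the deposited count table. Their transcripts were measured by RNA sequencing of poly(A)-enriched libraries from mouse cortical neuronal cultures, which received a lentivirus at 7 days in vitro and were harvested 10 days later. In 6 libraries the cultures overexpressed Psmb8, the interferon-inducible β5i catalytic subunit of the immunoproteasome. In 6 libraries they overexpressed Psmb5, the constitutive β5 catalytic subunit whose place β5i takes. In the remaining 6 they overexpressed mSc (mScarlet, a red fluorescent control protein). All 3 groups therefore shared lentiviral transduction and an expressed transgene, and no untransduced culture was analysed here. The labels' treatment text names an Ifng construct for every sample, against the treatment tags and the design text that give these 3 constructs. The labels give no mouse strain, age at plating or promoter. They do not say whether the 6 replicates of a group came from separate dissections or what a replicate number stands for, so the spread on which the p-values rest may be technical.

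The proteasome is the protease that degrades ubiquitin-tagged proteins. Its barrel, the 20S core, is built by stacking a ring of α subunits and a ring of β subunits and joining a pair of such stacks face to face, and its lid-and-base cap, the 19S particle, carries a ring of ATPases that unfold substrates. None of this assembles reliably unaided: dedicated chaperones hold the α ring, guide the β subunits and escort the ATPases. They then leave or are destroyed by the finished core, as POMP is. In neurons, proteasome activity is known to support protein turnover at synapses.

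Each gene was located on GRCm38 with GENCODE's annotation, and the lengths below are those of its principal transcript. Pomp (ENSMUSG00000029649) lies at chr5:147860461-147876456 on the plus strand with 6 exons and 1579 exon bases. Psmg1 (ENSMUSG00000022913) lies at chr16:95979933-95990960 on the minus strand with 7 exons and 1044 bases, and its partner Psmg2 (ENSMUSG00000024537) at chr18:67641599-67654162 on the plus strand with 7 exons and 1059 bases. Psmg3 (ENSMUSG00000029551) lies at chr5:139823592-139826885 on the minus strand with 3 exons and 883 bases, and its partner Psmg4 (ENSMUSG00000071451) at chr13:34162964-34178173 on the plus strand with 3 exons and 555 bases. Among the 19S chaperones, Psmd5 (ENSMUSG00000026869) lies at chr2:34849734-34874968 on the minus strand with 10 exons and 4397 bases. Psmd9 (ENSMUSG00000029440) lies at chr5:123169413-123250131 on the plus strand with 6 exons and 2597 bases, and Psmd10 (ENSMUSG00000031429) at chrX:140948429-140956728 on the minus strand with 5 exons and 1430 bases. Counts of 3 of the genes carry an uncertainty, since neither the strand setting nor the treatment of reads with several matches is given in the sources used here. Psmd9 shares 1849 exon bases with the opposite-strand non-coding gene Gm26745, which had 141 counts over the 18 libraries, so reads of the pair may not be separable. Psmg3 shares 280 exon bases with Gm26938 on the same strand, which had 0 counts, and stretches of annotated Pomp transcripts match other genes over 86 to 169 bases at 95% identity or more.

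Library totals were 16091906 to 18630396 counts in Psmb8, 16055974 to 19640543 in Psmb5 and 15337511 to 21074229 in mSc. The overexpressed genes were high in their own groups: Psmb8 averaged 887 ± 198 CPM in the Psmb8 group, 5.03 ± 5.48 CPM in the Psmb5 group and 6.28 ± 7.76 CPM in mSc, and Psmb5 averaged 48.3 ± 1.90, 451 ± 113 and 42.9 ± 1.49 CPM in the same groups (SD, n = 6 each; CPM is the count scaled to a common library size). Outside the Psmb8 group, Psmb8 was highest in numbers 3 and 6, at 12.2 and 19.4 CPM in mSc and 8.37 and 14.6 CPM in Psmb5. The other mSc and Psmb5 libraries had 0.488 to 3.10 CPM of Psmb8. Libraries with the same replicate number resembled each other across groups. Once each group's mean log2 CPM was subtracted, the correlation was 0.43 to 0.72 over 18 same-numbered pairs (mean 0.59). Over 90 other pairs it was -0.53 to 0.64, so the ranges overlapped. The mean of those pairs, -0.12, is pulled below 0 by the subtraction itself, after which a group's deviations sum to 0. Because same-numbered libraries resembled each other, the number was also used as a block, that is, as a term that compares libraries within a number. In all 3 groups the libraries numbered 1 stood apart in the summed levels of astrocyte markers and of vascular, mural and fibroblast markers. Those numbered 3 and 6 stood apart in interferon-stimulated genes and those numbered 4 in cell-cycle markers. All 10 neuron markers were expressed, and their summed level was 4109 to 5181 CPM in Psmb8, 3924 to 5032 CPM in Psmb5 and 3880 to 5146 CPM in mSc libraries. Of the markers of other cell types, all 10 for astrocytes and 9 of 10 for oligodendrocytes passed the low-count filter. For microglia 2 of 11 passed, and for vascular, mural and fibroblast cells 5 of 10. Among the latter, the endothelial gene Cldn5 was at 0 in all libraries.

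All 8 chaperone genes passed the low-count filter. Per kilobase of principal transcript in mSc libraries, Pomp was the most abundant at 28.7 ± 2.47 CPM per kb (SD, n = 6). It was followed by Psmg2 at 13.1 ± 0.533, Psmg4 at 10.7 ± 0.831, Psmd9 at 10.6 ± 0.899, Psmg1 at 9.64 ± 1.32, Psmd5 at 7.67 ± 0.433, Psmg3 at 5.36 ± 0.896 and Psmd10 at 4.99 ± 0.428 CPM per kb. The ranges of Psmg4, Psmd9, Psmg1 and Psmd5 overlapped from 1 neighbour to the next, as did those of Psmg3 and Psmd10. Psmg1 and Psmd5 overlapped only between 7.97 and 8.15 CPM per kb. All genes were measured in the same libraries, and no test was run on their order. The order depends on the length used: over the union of all annotated exons Psmg4 came first at 10.7 CPM per kb, Pomp had 8.67 and Psmg3 was last at 1.64. Across all 18 libraries the ratio of highest to lowest library ran from 1.26 for Psmd9 to 1.84 for Psmg3. The SD of log2 CPM was above the median of all tested genes (0.189) in Psmg3 (0.253) and Psmd10 (0.193). It was below that median in the other members, and lowest in Psmd9 (0.095). Psmg3 was also the gene with the fewest reads, 56 to 116 counts a library, against 611 to 1032 for Pomp, so counting error weighs most on Psmg3 and on Psmg4 with 87 to 140 counts.

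The promoters of 3 members are shown, because Pomp and Psmd9 were the members that differed between replicate numbers and Psmd10 the member with the highest correlation with Pomp once group means were subtracted. They are RefSeq's sequences on GRCm38.p6, 250 bases before to 50 after the annotated start, written 5′ to 3′ on the gene's strand; the RefSeq start of Psmd9 lies inside the GENCODE span of the gene. Capitals mark matches to any of 4 motifs searched on both strands: CCGGAAG (an ETS-family motif), TGACNNNGC (the core of the antioxidant response element bound by NRF1 and NRF2), CCAAT (NF-Y) and GAAA followed after any 2 bases by GAAA (the core of the interferon-stimulated response element).
Pomp, chr5:147860378-147860677, plus strand: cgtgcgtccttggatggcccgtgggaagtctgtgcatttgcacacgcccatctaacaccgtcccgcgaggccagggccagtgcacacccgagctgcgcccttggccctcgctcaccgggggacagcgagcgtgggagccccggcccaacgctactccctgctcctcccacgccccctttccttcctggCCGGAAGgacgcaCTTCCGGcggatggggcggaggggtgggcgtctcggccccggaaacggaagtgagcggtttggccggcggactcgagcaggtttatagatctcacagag
Psmd9, chr5:123227940-123228239, plus strand: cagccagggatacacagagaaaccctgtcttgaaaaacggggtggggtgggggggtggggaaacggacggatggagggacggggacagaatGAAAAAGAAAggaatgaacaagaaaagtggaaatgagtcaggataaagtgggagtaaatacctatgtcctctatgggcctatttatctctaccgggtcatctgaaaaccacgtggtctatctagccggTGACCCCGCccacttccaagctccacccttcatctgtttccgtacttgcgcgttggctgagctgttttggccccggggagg
Psmd10, chrX:140956662-140956961, minus strand: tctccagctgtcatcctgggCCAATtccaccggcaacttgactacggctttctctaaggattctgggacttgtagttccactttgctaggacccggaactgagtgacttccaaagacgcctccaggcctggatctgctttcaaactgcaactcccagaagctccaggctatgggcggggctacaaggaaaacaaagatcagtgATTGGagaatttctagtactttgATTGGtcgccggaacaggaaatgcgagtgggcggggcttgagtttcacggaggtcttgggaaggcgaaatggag
In Pomp the ETS letters occurred on both strands, with first bases 62 and 49 bases before the start. They also occurred in Psmg1 and Psmg3, thus in 3 of the 7 members with a promoter in the table, against 11 of 26 proteasome subunit genes and 8.86% of 32851 promoters. In Psmd9 the antioxidant letters began 31 bases before the start and the interferon letters 159 bases before it. The antioxidant letters occurred in 1 of the 7 members, 5 of 26 subunit genes and 12.4% of all promoters, and the interferon letters in 2 of 7 members (Psmg4 was the other, 15 bases after its start), 2 of 26 subunit genes and 3.44% of all promoters. In Psmd10 the CCAAT letters occurred at 3 places, beginning 230, 47 and 24 bases before the start, while none of the other 6 members held them, against 11 of 26 subunit genes and 37.4% of all promoters. None of these matches overlapped another. A match is a description of the letters in this window.

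The comparison of Psmb8 with mSc asked whether overexpressing the immunoproteasome subunit went with a change in the transcripts that build proteasomes. No chaperone gene passed the threshold, a Benjamini-Hochberg adjusted p of 0.05 over 15671 genes in edgeR's quasi-likelihood test, with or without the block (0 of 8 in each; background 0.00638% of genes without the block and 0.325% with it). DESeq2 and limma-voom also called 0 of the 8 in either form. At an unadjusted p under 0.05 the blocked fit had 1 of the 8, Pomp (background 10.7%), and the fit without the block had 0 of 8 (background 2.17%). In every one of the 8 the Psmb8 and mSc libraries overlapped, where 0.121% of all genes had groups that did not. Levels here are bulk values, in which fewer cells of a type and less RNA per cell cannot be told apart.

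Pomp encodes the maturation protein that brings β subunits onto the α ring, and in human cells it is known to favour incorporation of β5i. It had 46.1, 48.2 and 59.5 CPM as the lowest, median and highest of the 6 Psmb8 libraries, against 39.5, 45.6 and 50.5 CPM in mSc libraries. Replicate 4 was the highest library of both groups, 2 of the 6 Psmb8 libraries lay above every mSc library, and 3 mSc libraries lay below every Psmb8 library. Compared within numbers, Psmb8 was above mSc in 5 of 6 pairs, by 0.22, 0.21, 0.07, 0.24 and 0.15 on the log2 scale in replicates 1 to 5, while replicate 6 gave -0.04. The log2 fold change was 0.14 (SE 0.08) without the block and 0.14 (SE 0.04) with it, a ratio of 1.10 with a 95% interval of 1.03 to 1.18 in the blocked fit. Its edgeR adjusted p was 0.9999 without the block and 0.212 with it, from an unadjusted p of 0.00473 that ranked 349 among all genes.

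Psmg1 and Psmg2 encode PAC1 and PAC2, the paired chaperones that gather α subunits and keep unfinished α rings from pairing with each other. Psmg2 had 13.7, 14.8 and 17.0 CPM (lowest, median, highest) in Psmb8 libraries, against 13.2, 13.9 and 14.7 CPM in mSc libraries. Its 6 Psmb8 libraries were more spread than its mSc libraries, 3 of them lying above every mSc library, and 4 of 6 pairs were higher. The blocked log2 fold change of Psmg2 was 0.11 (SE 0.07; 95% interval -0.04 to 0.25; edgeR adjusted p = 0.612). Its partner Psmg1 had 9.04, 9.72 and 10.9 CPM in Psmb8 libraries, against 8.32, 9.89 and 11.9 CPM in mSc libraries, and a blocked log2 fold change of -0.04 with an interval of -0.21 to 0.14. The mSc range of Psmg1 enclosed the whole Psmb8 range, and 3 of 6 pairs were higher.

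Psmg3 and Psmg4 encode PAC3 and PAC4, which form a scaffold for the earliest α subunits. Psmg3 had 3.40, 4.57 and 6.16 CPM in Psmb8 libraries, against 3.90, 4.61 and 6.24 CPM in mSc libraries. Psmg4 had 5.11, 6.19 and 7.28 CPM in Psmb8 libraries, against 5.14, 6.02 and 6.55 CPM in mSc libraries. The Psmg3 ranges nearly coincided, with replicate 3 highest in Psmb8 and replicate 2 highest in mSc, and for Psmg4 a single Psmb8 library, replicate 2, lay above the mSc range. The blocked log2 fold changes were -0.02 for Psmg3 (95% interval -0.29 to 0.25) and 0.06 for Psmg4 (-0.15 to 0.28). Both intervals include 0, and their width rests on the number of libraries and the spread between them as well as on depth.

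The 19S chaperones each bind an ATPase of the base. Psmd5, whose protein S5b binds the ATPase made by Psmc2, had 31.6, 34.6 and 40.8 CPM in Psmb8 libraries, against 31.5, 33.7 and 35.8 CPM in mSc libraries. Replicates 3 and 4 of Psmb8 stood above all mSc libraries, the other 4 within the mSc range, and the blocked log2 fold change was 0.09 (SE 0.05; 95% interval -0.01 to 0.18; edgeR adjusted p = 0.553). Psmd10 encodes gankyrin, which binds the ATPase made by Psmc4 and is also known as a partner of the tumour suppressor RB1. It had 6.25, 7.43 and 10.2 CPM in Psmb8 libraries, against 6.30, 7.14 and 7.92 CPM in mSc libraries, again with replicates 3 and 4 of Psmb8 above all mSc libraries, and a blocked log2 fold change of 0.11 (SE 0.10; 95% interval -0.10 to 0.33). Psmd9 encodes p27, which binds the ATPase made by Psmc3, and had the narrowest range of the 8 over all libraries. It had 24.9, 26.6 and 30.7 CPM in Psmb8 libraries, against 24.3, 28.3 and 30.0 CPM in mSc libraries, with a blocked log2 fold change of -0.02 and an interval of -0.12 to 0.07. The groups covered nearly the same range in Psmd9, and 3 of 6 pairs were higher.

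**Figure D1:**
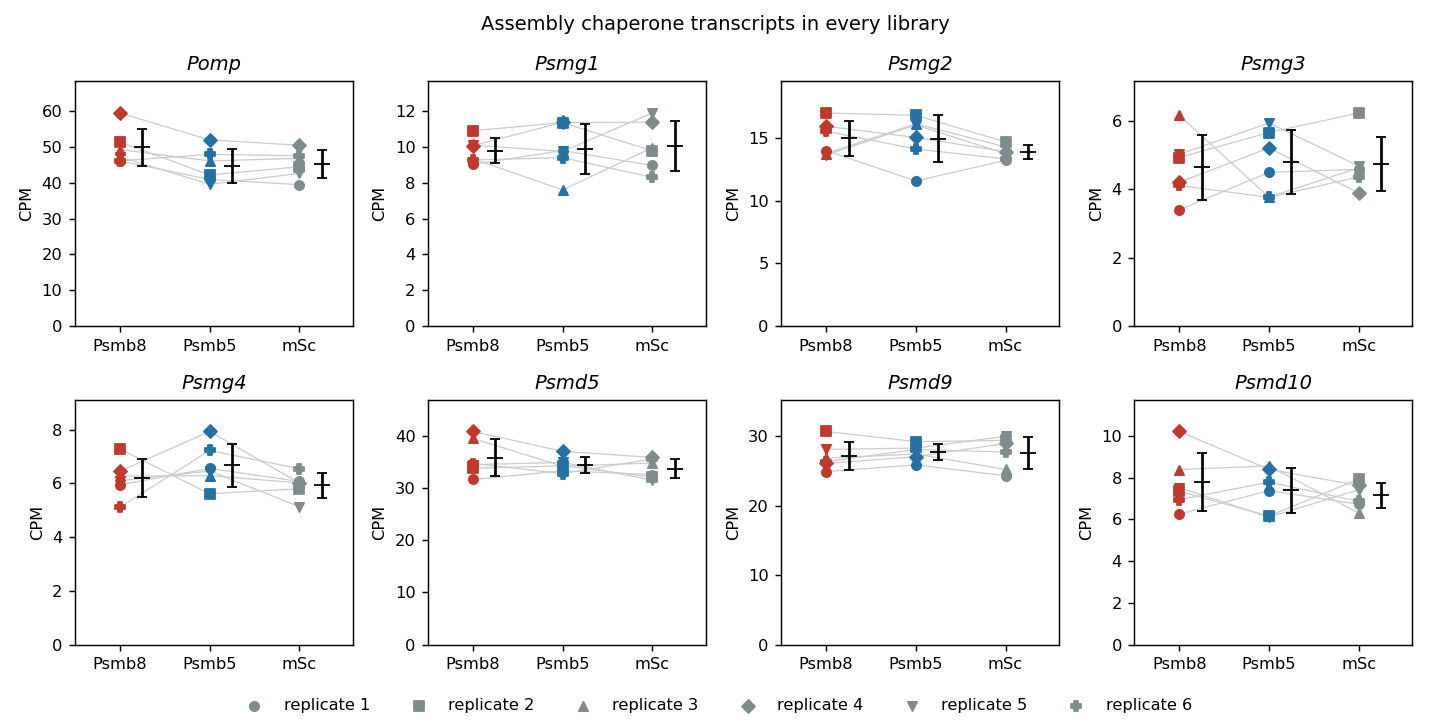
CPM of each chaperone gene (y axis, from 0) in the 6 Psmb8 (red), 6 Psmb5 (blue) and 6 mSc (grey) libraries. Marker shapes give the replicate number, grey lines join libraries of 1 number, and black bars give the mean and SD of a group. The groups overlap in all 8 genes, and Pomp averages 49.9 CPM in Psmb8, 44.8 CPM in Psmb5 and 45.2 CPM in mSc.

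Overexpressing Psmb5 asked the same of the constitutive subunit. None of the 8 genes passed the threshold with or without the block (edgeR, background 0.00638% in both, from the Psmb5 gene alone), none had an unadjusted p under 0.05 in the blocked fit (background 6.87%) or without the block (0.944%), and DESeq2 and limma-voom called 0 of 8. The groups overlapped in all 8 genes (0.0319% of all genes did not). Pomp had 39.6, 44.1 and 52.0 CPM in Psmb5 libraries, against 39.5, 45.6 and 50.5 CPM in mSc libraries. Its libraries interleaved, 3 of 6 pairs were higher, and the blocked log2 fold change was -0.02 with a 95% interval of -0.11 to 0.08. The highest estimate among the 8 was that of Psmg4, 0.17 (SE 0.10; 95% interval -0.04 to 0.38; edgeR adjusted p = 0.795). Psmg4 had 5.62, 6.51 and 7.94 CPM in Psmb5 libraries, against 5.14, 6.02 and 6.55 CPM in mSc libraries, with replicates 1, 4 and 6 of Psmb5 above every mSc library and 5 of 6 pairs higher. Psmg2 was also higher in 5 of 6 pairs, with 11.6, 15.6 and 16.8 CPM in Psmb5 libraries against 13.2, 13.9 and 14.7 CPM in mSc libraries, and a blocked log2 fold change of 0.11 (-0.04 to 0.25). Replicate 1 was the exception there and the lowest Psmg2 library of all 18. The other 5 genes had blocked log2 fold changes from -0.03 (Psmg1) to 0.04 (Psmd10), with Psmd9 at 0.00 (95% interval -0.09 to 0.10).

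Psmb8 and Psmb5 were then compared directly. Again 0 of 8 genes passed the threshold in edgeR (background 0.0128% without the block and 0.0383% with it), and 0 of 8 in DESeq2 and limma-voom. The groups overlapped in all 8 genes (0.0893% of all genes did not). Pomp was the 1 gene of the 8 at an unadjusted p under 0.05 in the blocked fit (background 7.64%), and without the block there were 0 of 8 (background 1.33%). Pomp had 46.1, 48.2 and 59.5 CPM in Psmb8 libraries, against 39.6, 44.1 and 52.0 CPM in Psmb5 libraries. Within numbers it was higher in Psmb8 in 5 of 6 pairs, by 0.10 to 0.28 on the log2 scale, with replicate 6 at -0.05 as the exception in this comparison too. The log2 fold change was 0.16 in both fits, with an SE of 0.08 without the block and 0.04 with it (95% interval 0.07 to 0.25; edgeR adjusted p = 0.290; unadjusted 0.00187, rank 101). The comparisons of Psmb8 with mSc and with Psmb5 share their Psmb8 libraries, so the similar Pomp values are not separate observations. Psmg4 was the gene furthest below 0, with a blocked log2 fold change of -0.10 (95% interval -0.32 to 0.11), lower in Psmb8 in 5 of 6 pairs. Psmd9 was likewise lower in 5 of 6 pairs, with a log2 fold change of -0.03 (-0.12 to 0.07).

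The chaperones were set beside the subunits they assemble, 13 of the 20S core with Psmb5 left out and 19 of the 19S particle. Psmb5 was left out of all 3 comparisons, although it is a transgene in 1 group only. It had 45.8 to 51.1 CPM in Psmb8 and 41.0 to 45.1 CPM in mSc libraries, without overlap (0.121% of all genes had none). In Psmb8 against mSc all 32 subunits had a blocked log2 fold change above 0, from 0.02 to 0.20 with a median of 0.13, and 1 of the 32, the ATPase gene Psmc5, rose by edgeR's test (0.20, SE 0.04, adjusted p = 0.0332; 0.9999 without the block). Psmc5 no longer passed without number 1, 2, 3, 4 or 5 (adjusted p from 0.0610 to 0.132), without both 3 and 6 (0.148), nor in a fit of the Psmb8 and mSc libraries alone (0.0983). Under each scaling tried, all 32 subunits and 5 of the 8 chaperones stayed above 0 and the median of all genes stayed at -0.00 or 0.00. Of the 8 chaperones 5 were above 0, with a median of 0.08, where the median of all genes was 0.00 and 50.4% lay above 0. Pomp, at 0.14, was close to the subunit median, whereas Psmg1, Psmg3 and Psmd9 were below 0. In Psmb5 against mSc the medians were 0.03 for the chaperones (6 of 8 above 0, against 51% of all genes) and 0.02 for the subunits (21 of 32). In Psmb8 against Psmb5 the chaperones had a median of -0.00 (4 of 8 above 0, against 49.9% of all genes) and the subunits of 0.13 (32 of 32). These are counts over genes that share libraries, and the difference between the 2 lists was not tested.

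**Figure D2:**
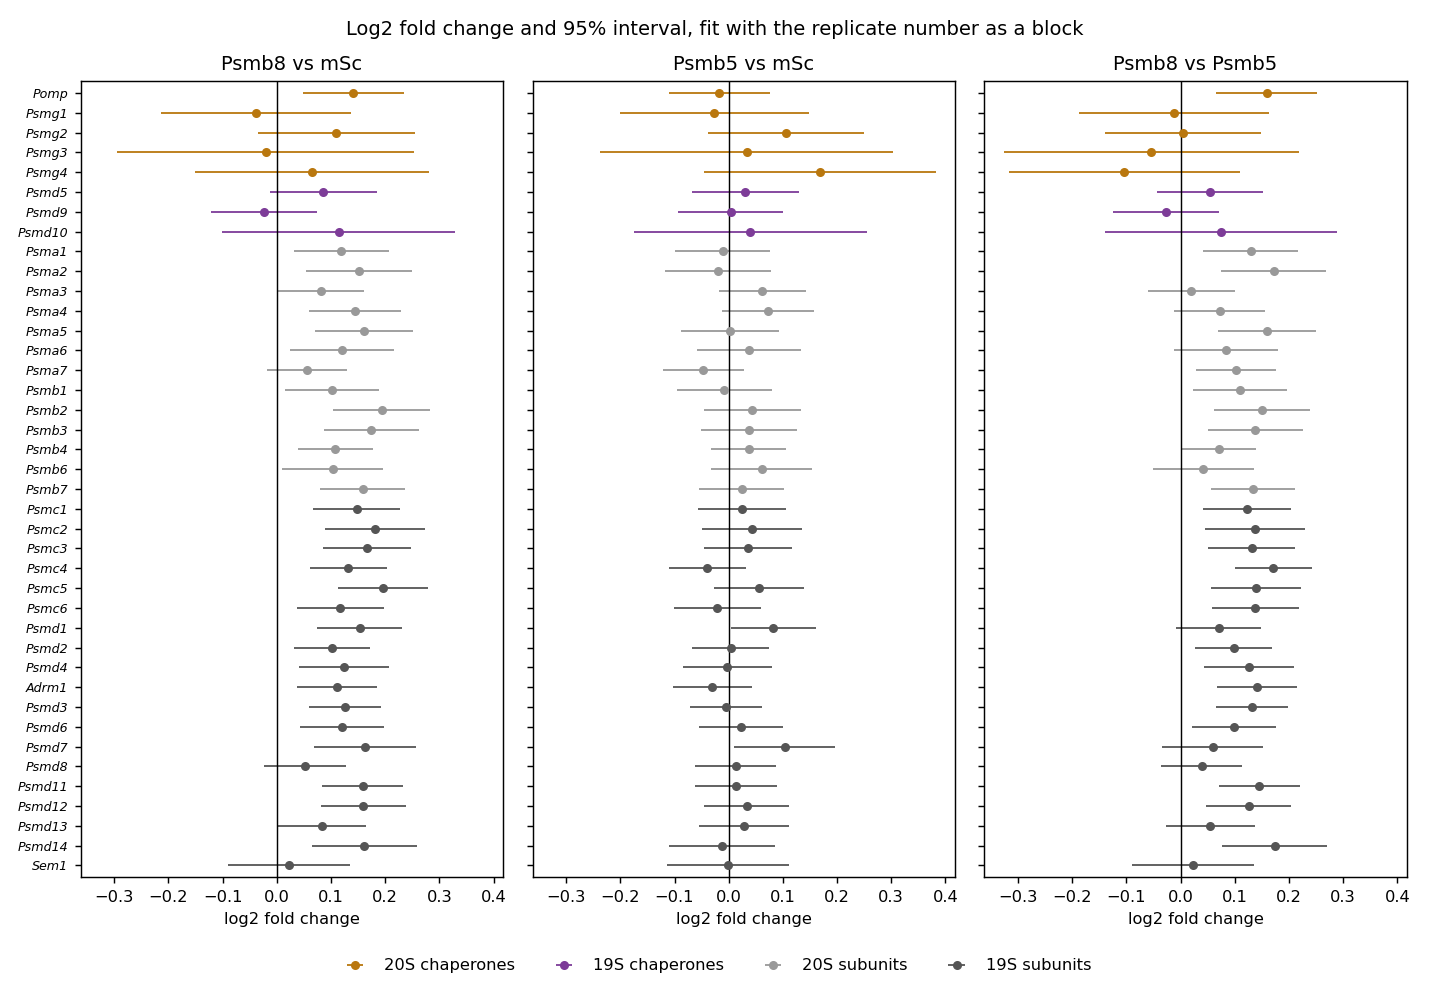
Blocked log2 fold change (x axis) with its 95% interval for the 8 chaperone genes and 32 subunit genes, in Psmb8 vs mSc (left), Psmb5 vs mSc (middle) and Psmb8 vs Psmb5 (right). In the left panel all 32 subunits lie right of 0, while chaperones lie on both sides, with wide intervals for Psmg3, Psmg4 and Psmd10.

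Summed per library, the 5 core chaperones had 85.6 ± 6.93 CPM in Psmb8, 81.2 ± 6.06 CPM in Psmb5 and 79.9 ± 4.44 CPM in mSc (SD, n = 6 each). Psmb8 was above mSc in 6 of 6 pairs, but in replicate 6 only at 80.2 against 80.1 CPM. Pomp averaged 49.9, 44.8 and 45.2 CPM of this sum in Psmb8, Psmb5 and mSc. The 13 core subunits had 908 ± 59.9, 847 ± 28.0 and 834 ± 23.1 CPM in the same groups, with Psmb8 above mSc in 6 of 6 pairs as well. Chaperone transcripts thus made up 9.42 ± 0.373% of the core subunit level in Psmb8, 9.59 ± 0.605% in Psmb5 and 9.58 ± 0.391% in mSc, a difference smaller than the SD of any group. Pomp alone came to 5.49 ± 0.223%, 5.28 ± 0.429% and 5.42 ± 0.346% of the core subunits. The 3 chaperones of the 19S particle had 70.7 ± 5.07 CPM in Psmb8, 69.4 ± 1.94 CPM in Psmb5 and 68.4 ± 3.09 CPM in mSc, and the 19 subunits had 1759 ± 98.2, 1627 ± 77.6 and 1608 ± 82.5 CPM. As a percent of those subunits the chaperones stood at 4.02 ± 0.200 in Psmb8, 4.27 ± 0.190 in Psmb5 and 4.26 ± 0.200 in mSc. The share was lower in Psmb8 than in mSc in 5 of 6 pairs, replicate 3 being the exception, and the groups overlapped. These shares are sums of CPM without a length correction, and no test was run on them.

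**Figure D3:**
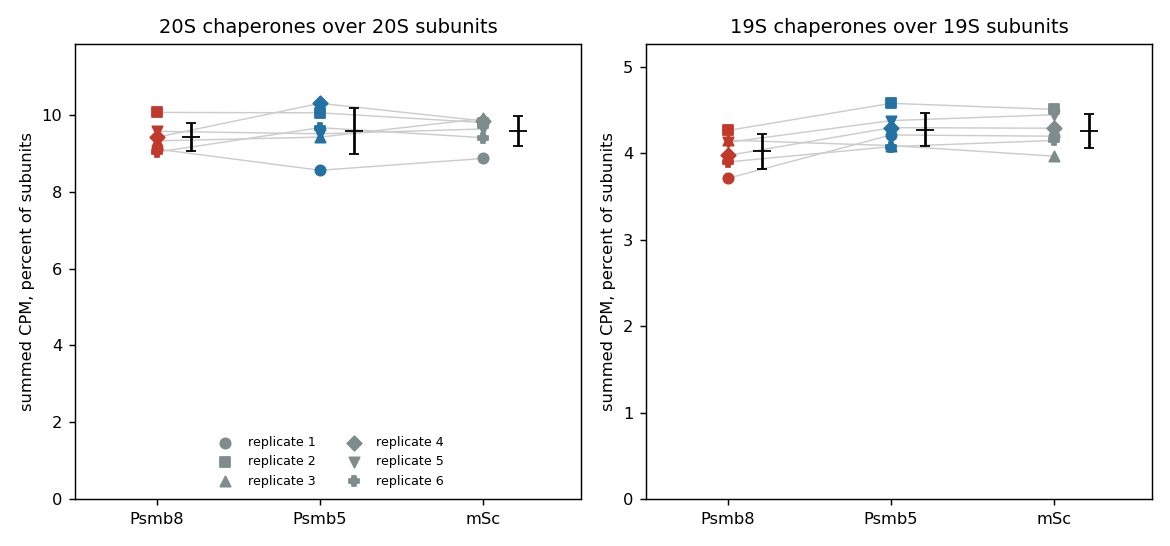
Summed CPM of the chaperones as a percent of the summed CPM of the subunits (y axis, from 0) in each Psmb8 (red), Psmb5 (blue) and mSc (grey) library, for the 20S core (left) and the 19S particle (right). Lines join libraries of 1 replicate number and black bars give mean and SD. On the right, 5 of 6 Psmb8 libraries lie below the mSc library of their number, the means being 4.02 and 4.26%.

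The replicate number, which has more levels than the group, accounted for more of the variance than the group in 7 of the 8 genes, Psmg4 being the exception. Of the variance of log2 CPM over the 18 libraries, the number accounted for 62.7% in Pomp and the group for 23.6%. In Psmd9 the number accounted for 76.0% and the group for 1.75%, and over all tested genes the medians were 66.0% for the number and 4.68% for the group. Psmg4 had 14.5% for the number, 19.5% for the group and 65.9% for neither. In edgeR's test of the number, 2 of the 8 passed, Pomp (adjusted p = 0.00072) and Psmd9 (adjusted p = 0.0322), against 64.3% of all genes. The remaining 6 had adjusted p-values from 0.0523 (Psmd5) to 0.830 (Psmg4). Pomp averaged 42.2, 46.0, 47.4, 54.0, 43.1 and 47.2 CPM over the 3 libraries of numbers 1 to 6, so number 4 was 1.28 times number 1. Without number 4 Pomp no longer passed (adjusted p = 0.0704). Psmd9 averaged 25.0, 29.7, 26.5, 27.3, 28.8 and 27.4 CPM, with number 2 at 1.19 times number 1. Psmd9 no longer passed without number 1, 2 or 5 (adjusted p = 0.130, 0.126 and 0.0501), with no low-count filter (0.0666) or by DESeq2's likelihood ratio test (0.0817).

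Number 4 was also the highest for Psmg1, Psmg4, Psmd5 and Psmd10, and the lowest number was 1 for Pomp, Psmg2, Psmd5, Psmd9 and Psmd10. The mean log2 CPM of the 32 subunits was highest in number 4 as well, at 6.40 in Psmb8, 6.19 in Psmb5 and 6.18 in mSc. Number 4 stood apart in 8 cell-cycle markers, whose summed level was 192 CPM in Psmb8, 176 CPM in Psmb5 and 146 CPM in mSc, against 67.7 to 132 CPM in the other 15 libraries. Number 1 stood apart in astrocyte markers, whose summed level was 4415 CPM in Psmb8, 4374 CPM in Psmb5 and 5214 CPM in mSc, against 1427 to 2031 CPM in the other 15 libraries. The 5 tested vascular, mural and fibroblast markers summed to 53.3, 40.1 and 44.3 CPM in the same 3 libraries, against 13.2 to 31.0 CPM in the others. Dcn had the highest level of the 5. Pecam1 did not pass edgeR's test of the number (adjusted p = 0.490), whereas Pdgfrb, Rgs5, Col1a1 and Dcn did. Numbers 3 and 6 stood apart in interferon-stimulated genes, with a mean log2 CPM of 2.58 to 4.21 against 0.35 to 1.67 elsewhere. The part of these markers in the chaperone levels was not tested. With numbers 3 and 6 left out of all groups, Pomp had a log2 fold change of 0.20 with or without the block in Psmb8 against mSc (edgeR adjusted p = 0.220 and 0.9999), and 0 of 8 genes passed in each comparison. Leaving out any 1 number, number 1 included, also left 0 of 8 passing.

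**Figure D4:**
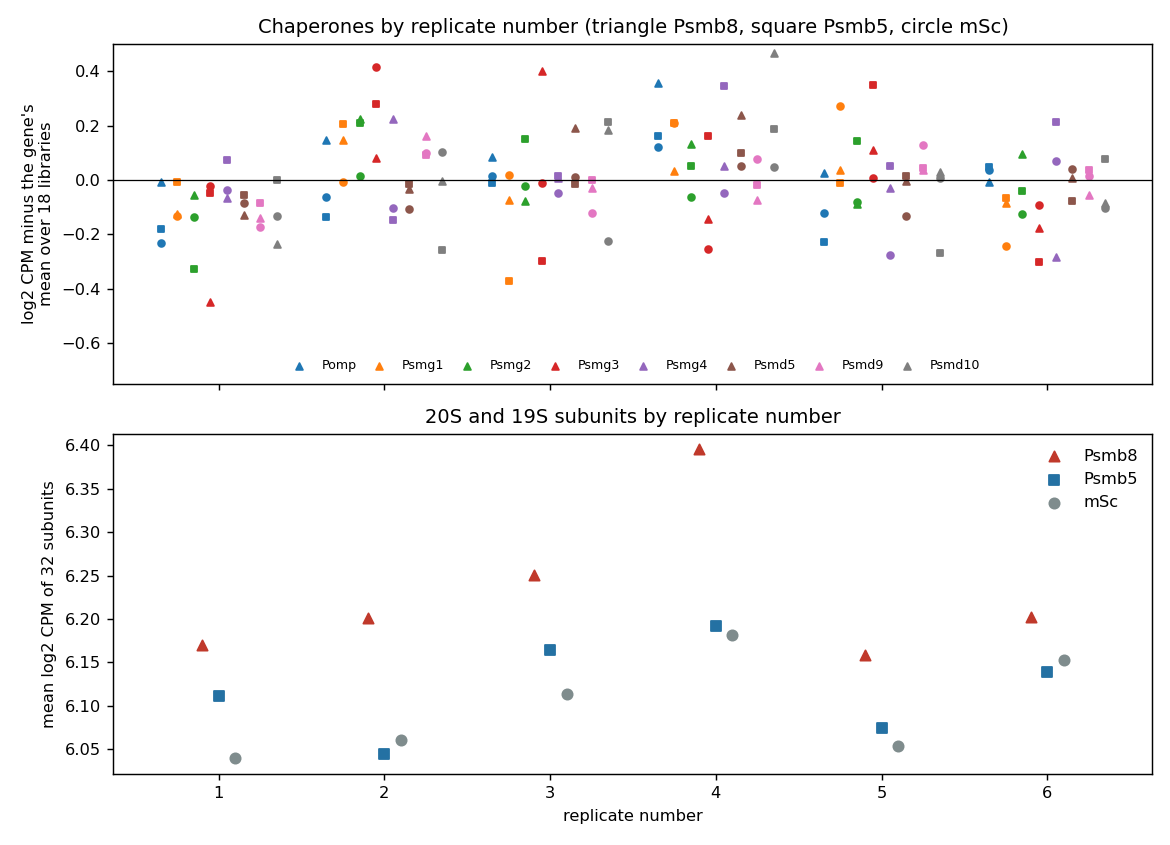
Top: log2 CPM of each chaperone gene minus its mean over 18 libraries (y axis) by replicate number (x axis); colours are genes, triangles Psmb8, squares Psmb5 and circles mSc. Bottom: mean log2 CPM of the 32 subunits (y axis) in the same libraries; the Psmb8 library is the highest of its number in all 6, and number 4 is the highest number, at 6.40 in Psmb8, 6.19 in Psmb5 and 6.18 in mSc.

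Among themselves the chaperones varied together in part. With the group mean taken off, Pearson's r over the 18 libraries was 0.69 between Pomp and Psmd10, 0.63 between Pomp and Psmd5, 0.58 between Pomp and Psmg4 and 0.51 between Psmd5 and Psmd10, and lowest at -0.21 between Pomp and Psmg3. With the number mean taken off as well, Pomp and Psmg4 stood at 0.64 and Pomp and Psmd10 at 0.41. Pomp and Psmd5 then stood at -0.21, and Psmd5 and Psmd10 at -0.005. On this scale r was highest at 0.72 between Psmg3 and Psmd5 and lowest at -0.38 between Pomp and Psmg3. These r values describe libraries that share depth and culture, and the 18 points fall in 6 sets of 3.

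Of 11548 genes at a mean of 5 CPM or more (11549 for Psmg3), Pomp's levels with the group mean removed were most like those of Eda2r (r = 0.92), S100a11 (0.91) and Txnrd1 (0.91) over 18 libraries. Psmd9 was most like Rnf208 (0.93), Usf1 (0.91) and Fam43b (0.90), and Psmd5 like Zfp719 (0.89), Rexo2 (0.88) and Rap1gds1 (0.86). For Psmg1 they were Rnaseh2a (0.87), Zfp790 (0.84) and Rabepk (0.82), and for Psmd10 Api5 (0.81), Gabpa (0.81) and Snx2 (0.80). Psmg2 came closest to Mief2 (0.81), Mppe1 (0.79) and Grwd1 (0.76), and Psmg3 to B3galnt2 (0.85), Eny2 (0.85) and Mtg2 (0.79). Psmg4 had the weakest likeness, with Itpripl2 (0.75), Cope (0.71) and Pex2 (0.70). None of these genes encodes a proteasome subunit, but the 32 subunits above are few among the 11548 genes compared. Their absence therefore says little, and likeness between chaperones and subunits was not tested.

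Other factors known to act on proteasome assembly, transport or the finished particle gave 8 tested genes of 9 listed, and 0 of 8 passed in any comparison in either fit. Their median blocked log2 fold change was 0.05 in Psmb8 against mSc, with 6 of 8 above 0. The one with the smallest p was Txnl1, a thioredoxin-like protein of the 19S particle, at 0.12 (SE 0.04; edgeR adjusted p = 0.271). Within the subunits the smallest p-values of each ring or subcomplex in Psmb8 against mSc were those of Psma5 (0.16, adjusted p = 0.123), Psmb2 (0.19, 0.0532), Psmd1 (0.15, 0.0893) and Psmd11 (0.16, 0.0579), beside Psmc5 above, all in the blocked fit. The 4 immunoproteasome genes other than Psmb8 had a median of -0.02 and none passed. Psmb9, the β1i subunit, stood at -0.60 with the block (SE 0.14, edgeR adjusted p = 0.0712) and at -0.66 without it (SE 0.86, edgeR adjusted p = 0.9999). Beside it, 27 tested interferon-stimulated genes of 30 listed had a median of -0.30, and 1 of them fell with the block and 0 without it (background 0.325% and 0.00638%). That gene was Gbp2, an interferon-induced GTPase named here after its values were seen, at -0.86 (SE 0.14; edgeR adjusted p = 0.00599 with the block). Of the alternative caps, Psme3 had 0.07 and the median of 2 genes was 0.02. Among 13 genes for transcription of proteasome genes the median was 0.01, with 0 passing, and Vcp, the p97 unfoldase needed to release NRF1, had the smallest p at 0.12 (SE 0.03; adjusted p = 0.110).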

How the data were processed

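Raw read counts per Ensembl gene, whole numbers in 1 column per library, were deposited by the authors for 18 libraries. STAR 2.4, DESeq2 and the builds GRCm39 and mm10 are named in the submitters' processing notes with no role. The sources used here do not give the gene counter, its strand setting, its treatment of reads with several matches or its annotation. Of 43629 gene IDs, 42462 were given a symbol and 1167 kept their ID, and 0 columns of values were left unused. Coordinates come from GENCODE's annotation of GRCm38, which may not be the build of the counts, and promoters from RefSeq on GRCm38.p6.

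The main test was the quasi-likelihood test of edgeR 4.0.16 (R 4.3.3), fitted once to the 18 libraries by group: filterByExpr kept 15671 genes (at least 99.88% of each library's counts), TMM scaled the libraries, and p-values were adjusted by Benjamini and Hochberg's method over all tested genes, threshold 0.05. Standard errors and 95% intervals follow from the F statistic of that test. CPM uses TMM-scaled library sizes and log2 CPM a prior count of 1. At these totals Psmg3 had 56 to 116 counts a library, so counting error limits it most. Replicates of a group were compared for duplicates: over 45 pairs chi-square per degree of freedom was 2.91 to 37.8, so no pair within a group looked like 1 library deposited again; pairs across groups were not compared.

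The groups share replicate numbers. All 18 same-numbered pairs correlated at r of 0.43 to 0.72, on deviations from group means, and the 90 other pairs at -0.53 to 0.64. The numbers were taken to pair the samples, and the fit with the number as a block is given beside the other. Variation between replicates, as edgeR's common coefficient, was 5.94% in the blocked fit and 17.9% in the other. The rule for the 8 genes uses no measured value, but the genes and all lists were chosen with earlier results of these data known. Beyond the 8, the text names Psmb5 and Psmb8, per proteasome list up to 3 passing genes or else the one with the smallest p, and the 3 genes most like each member. Paaf1, listed among the other assembly factors, was not analysed here. Alternatives were DESeq2 1.42.0, limma-voom (limma 3.58.1), other scalings and filters, fits of the groups compared, and libraries left out; leaving out both numbers 3 and 6 was added after the data were seen. The fits were tested on simulated data.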

Additional observations from a re-analysis of the deposited data

Results flagged for a closer look

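Psmg3 had 6.24 CPM in replicate 2 of mSc, set apart from the other 5 mSc libraries, which lay between 3.90 and 4.68 CPM. It was the 1 value set apart among 36 groups of 6 libraries checked. These covered the chaperone genes, Psmb5, Psmb8 and the chaperone shares of the subunit sums, and chance sets apart about 1 group in 20. Replicate 2 of the other groups had 4.93 CPM in Psmb8 and 5.66 CPM in Psmb5. Without that library the Psmg3 log2 fold change of Psmb8 against mSc was 0.07, against -0.03 with it.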

How the results depend on the processing

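In each comparison no chaperone gene passed the threshold under any alternative run; the minimum of 5 CPM left 7 of the 8 to test, without Psmg3. Of 525 alternative values for the member fold changes of the fit without the block, the blocked fit among them, 40 changed sign. Of 312 alternative values for those of the blocked fit, 23 did. Pomp in Psmb8 against mSc kept its sign, with log2 fold changes from 0.09 to 0.20. Signs changed for Psmd9 in Psmb5 against mSc under upper-quartile scaling (-0.0035) and a minimum of 5 CPM (-0.0011). They changed for Psmg2 in Psmb8 against Psmb5 with no low-count filter (-0.0053, or -0.0028 with the block) and in DESeq2 (-0.00015). With numbers 3 and 6 left out, Psmb5 against mSc gave 0.0028 for Psmg1, -0.033 for Psmd9 and -0.089 for Psmd10 without the block, and 0.00097, -0.032 and -0.097 with it.

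Leaving out 1 library at a time changed signs within these ranges: in Psmb8 against mSc -0.12 to 0.067 for Psmg3, -0.089 to 0.017 for Psmg1 and -0.061 to 0.0022 for Psmd9; in Psmb5 against mSc -0.033 to 0.029 for Psmd9, -0.062 to 0.019 for Pomp, -0.074 to 0.041 for Psmg1 and -0.043 to 0.12 for Psmg3; and in Psmb8 against Psmb5 -0.063 to 0.039 for Psmg2, -0.079 to 0.029 for Psmg1, -0.15 to 0.022 for Psmg3 and -0.018 to 0.13 for Psmd10. Leaving out 1 number in the blocked fit did so as well: in Psmb8 against mSc -0.13 to 0.047 for Psmg3, -0.046 to 0.0018 for Psmd9 and -0.077 to 0.0080 for Psmg1; in Psmb5 against mSc -0.019 to 0.023 for Psmd9, -0.075 to 0.038 for Psmg1, -0.038 to 0.12 for Psmd10 and -0.039 to 0.083 for Psmg3; and in Psmb8 against Psmb5 -0.065 to 0.021 for Psmg1, -0.043 to 0.053 for Psmg2 and -0.21 to 0.0062 for Psmg3.

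Counts over all genes moved more. The replicate block gave 51 passing genes in Psmb8 against mSc (1 without it) and 6 in Psmb8 against Psmb5 (2 without it), and DESeq2 without the block gave 2 and 4. Within the blocked fit, Psmb8 against mSc, Psmb5 against mSc and Psmb8 against Psmb5 gave 24, 2 and 16 genes in fits of the groups compared, 138, 13 and 26 in DESeq2, and 321, 140 and 166 with no low-count filter. Without numbers 3 and 6 the first 2 gave 2 genes each. Leaving out 1 library gave 1 to 2 genes in Psmb8 against mSc without the block (2 without Psmb8 replicate 5), and leaving out 1 number in the blocked fit gave 9 to 59, 1 to 3 and 4 to 20 in that order, with 9 in Psmb8 against mSc without number 3 and 19 without number 2 or 6, 3 in Psmb5 against mSc without number 6, and 20 in Psmb8 against Psmb5 without number 4. The number test passed 1 chaperone in place of 2 with no low-count filter and in DESeq2's likelihood ratio test, and 1 to 2 when 1 number was left out. The causes were not tested. Depth limits Psmg3 and Psmg4 most.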

Other observations

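With both the group and the number mean taken off, the genes most like a chaperone over the 18 libraries were mostly others than those named above. For Pomp they were Phf23, Pard6g and Lsm1 (r = 0.86 each), for Psmd9 Eif3k (0.89), Rfc3 (0.88) and Cenpv (0.88), and for Psmg4 Zfp618 (0.92), Tmem160 (0.82) and Acot2 (0.81). Psmg3 kept B3galnt2 as its closest gene, at 0.89. These r values are the highest of 11548 genes compared (11549 for Psmg3), with few independent points, and are given as a description.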
